A study of Mus musculus with 2 samples.

Results

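The cytosolic ribosomal protein genes encode the proteins of the ribosome outside mitochondria, and their promoters were read here in open-chromatin maps of the mouse cortex. The set held 82 of the 21938 protein-coding genes of GENCODE M21 on chromosomes 1 to 19, X and Y. Members were chosen by symbol alone: Rpl or Rps followed by a number, with at most a closing a, x, l or s, together with Rplp0, Rplp1, Rplp2, Rpsa and Fau, and without the Rps6k kinases. They were spread over 20 chromosomes, with 14 of them on chromosome 7 and 4 on chromosome X. By role there were 43 large-subunit genes, 29 small-subunit genes, 3 stalk genes, 2 genes fused to a ubiquitin or ubiquitin-like sequence, and 5 paralogous copies whose symbol ends in l.

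The assay was DNase-seq, in which nuclei are treated with DNase I and the ends cut in open DNA are sequenced. The tissue was left cerebral cortex of male B6CASTF1/J mice aged 2 months, an F1 hybrid strain with C57BL/6J and CAST/EiJ as its parents. The 2 samples form a single group and are labelled biological replicates 1 and 2, with separate animal numbers and a common donor entry for the strain. No other tissue, age, sex or treatment was present, so the comparisons were between genes and between the libraries. No p-values were computed. Cortex mixes neurons, glia and vessel cells, and fewer cells with an open site cannot be told apart from less access per cell.

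Each cytosolic ribosome contains 1 copy of nearly every ribosomal protein, so cells make these proteins in near-equal amounts. Their genes are active in almost all cell types, mostly from CpG-rich promoters. Transcription of most starts at a C within a run of pyrimidines, and the resulting 5′ terminal oligopyrimidine (TOP) tract at the start of the mRNA lets the mTOR pathway set its translation. Many members also carry small nucleolar RNAs in their introns. The genome holds numerous processed copies of ribosomal protein genes, and a few paralogs are known to be used in a single tissue.

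A promoter peak was the tallest peak within 500 bp of any annotated transcription start site (TSS), and its height is the authors' own signal value. The reference TSS of a gene was the annotated start nearest the centre of that peak in replicate 1. Footprints are short stretches inside open DNA that the authors called as protected from cutting. The bases below show what such a promoter looks like, from 170 bp before to 30 bp after the reference TSS on the gene's own strand, 5′ to 3′. They are from the C57BL/6J reference GRCm38.p6, so a CAST/EiJ allele may differ. Capitals mark bases inside a footprint of both replicates. The first 4 are the members with the tallest promoters, and the next 3 had the most footprint bases shared by both replicates among the rest.

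Rplp0 (chr5:115559297-115559496, plus strand): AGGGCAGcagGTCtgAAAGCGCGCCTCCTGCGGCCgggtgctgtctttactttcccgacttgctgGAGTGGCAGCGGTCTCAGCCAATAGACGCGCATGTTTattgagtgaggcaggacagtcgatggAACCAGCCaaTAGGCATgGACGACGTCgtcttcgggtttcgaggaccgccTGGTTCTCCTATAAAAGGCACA

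Rpl7a (chr2:26910594-26910793, plus strand): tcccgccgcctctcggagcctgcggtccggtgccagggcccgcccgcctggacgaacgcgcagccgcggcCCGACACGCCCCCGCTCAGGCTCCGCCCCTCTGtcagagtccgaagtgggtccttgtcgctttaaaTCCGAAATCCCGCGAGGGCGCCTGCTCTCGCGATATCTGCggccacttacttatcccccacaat

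Rpl13a (chr7:45128732-45128931, minus strand): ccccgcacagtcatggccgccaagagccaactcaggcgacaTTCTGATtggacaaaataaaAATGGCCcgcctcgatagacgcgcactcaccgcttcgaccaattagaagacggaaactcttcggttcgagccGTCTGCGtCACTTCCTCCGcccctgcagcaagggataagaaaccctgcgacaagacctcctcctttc

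Fau (chr19:6057674-6057873, plus strand): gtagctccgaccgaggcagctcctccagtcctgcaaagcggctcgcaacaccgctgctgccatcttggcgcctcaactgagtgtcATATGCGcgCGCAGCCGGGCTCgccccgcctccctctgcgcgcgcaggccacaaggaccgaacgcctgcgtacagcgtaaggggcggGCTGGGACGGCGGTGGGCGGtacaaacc

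Rpl36al (chr12:69184054-69184253, minus strand): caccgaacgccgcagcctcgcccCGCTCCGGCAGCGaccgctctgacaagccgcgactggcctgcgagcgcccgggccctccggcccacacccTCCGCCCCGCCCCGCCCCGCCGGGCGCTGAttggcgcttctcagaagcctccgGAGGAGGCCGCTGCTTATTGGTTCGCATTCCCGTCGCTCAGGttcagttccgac

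Rpl3 (chr15:80083377-80083576, minus strand): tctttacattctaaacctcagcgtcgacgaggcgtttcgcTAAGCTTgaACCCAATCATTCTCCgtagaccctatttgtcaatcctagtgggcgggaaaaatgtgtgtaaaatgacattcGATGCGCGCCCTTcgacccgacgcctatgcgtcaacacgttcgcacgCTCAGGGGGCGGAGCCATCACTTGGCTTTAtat

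Rps12 (chr10:23787246-23787445, minus strand): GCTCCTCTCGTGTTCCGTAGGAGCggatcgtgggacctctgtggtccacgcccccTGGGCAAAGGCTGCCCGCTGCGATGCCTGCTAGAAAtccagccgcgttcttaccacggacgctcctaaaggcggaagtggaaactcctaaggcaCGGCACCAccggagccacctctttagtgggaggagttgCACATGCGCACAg

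The number of protected bases in these windows of 200 bp was 113 in Rplp0, 73 in Rpl7a, 32 in Rpl13a and 40 in Fau. Rpl36al had 85, Rpl3 had 65 and Rps12 had 80. Rps19 also ranked by shared footprint bases, with 116 within 500 bp of its reference TSS, but this window held 0 of them and is not printed.

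Nearly all members were open. A promoter was called accessible where both replicates had a peak, which held for 79 of 82 members (96.3%), against 12245 of 21856 other protein-coding genes (56.0%). Over all protein-coding genes the share was 56.2%. Replicate 1 alone had a peak at 80 members, with 61.6% over all genes, and replicate 2 alone at 79, with 57.1% over all genes. All 43 large-subunit, 29 small-subunit, 3 stalk and 2 fusion genes were accessible. No accessible member had under 378 bases in replicate 1, or under 230 in replicate 2, at a false discovery rate below 0.001 around its start sites.

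The 3 members without an accessible promoter were all paralogous copies. Rpl3l, the copy of Rpl3 used in heart and skeletal muscle, had a peak of height 0.237 and width 129 bp in replicate 1 and none in replicate 2. It had 242 bases below a false discovery rate of 0.001 in replicate 1 and 0 in replicate 2. Rpl10l and Rpl39l, which are known for their use in male germ cells, had no promoter peak in either replicate. Neither had a base at that false discovery rate. The longer of the authors' peak lists added no call for any of these 3 genes. Their canonical counterparts were open: Rpl3 had heights of 7.28 and 5.41 in replicates 1 and 2, Rpl10 had 3.39 and 3.07, and Rpl39 had 1.85 and 1.79.

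The other paralogous copies were open. Rpl36al had heights of 9.01 and 4.65, above those of its X-linked counterpart Rpl36a, at 3.01 and 1.57. Rps27l had 3.36 and 1.76, against 3.46 and 3.21 for Rps27. The Rpl36al peak was also the tallest promoter peak of the divergent gene Mgat2, and the Rps27 peak that of the divergent gene Rab13, so these heights cannot be given to the members alone.

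A further 11 protein-coding genes begin with Rpl or Rps and a number but fall outside the symbol rule by spelling. Of these, 4 were accessible: Rpl22l1 at 7.23 and 4.72 in replicates 1 and 2, Rps3a1 at 7.70 and 4.21, Rpl7l1 at 3.38 and 2.18, and Rps19bp1 at 3.06 and 1.39. Rps3a1 is the mouse symbol of an authentic small-subunit protein, and Rps19bp1 encodes a binding partner of Rps19. The 7 that were not accessible were Rpl10-ps3, Rpl36-ps4, Rpl36a-ps1, Rpl9-ps1, Rpl9-ps6, Rps12-ps3 and Rps27rt, 6 of them named as pseudogenes. None of these 7 had a promoter peak in the shorter list of either replicate. In the longer lists Rps27rt had peaks of 0.522 and 0.331 in replicates 1 and 2, which made 5 of the 11 accessible there. Rpl36-ps4 had a peak of 0.182 in the longer list of replicate 2 only.

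Members' promoters were also taller. The geometric mean height of the 2 replicates had a median of 4.33 over the 79 accessible members and 2.80 over the 12245 other accessible genes, a ratio of 1.55. In replicate 1 the medians were 5.55 in members and 3.72 in other genes, and in replicate 2 they were 3.59 in members and 2.11 in other genes. In both replicates 58 of 79 members lay above the other genes' median. Of the accessible members, 39 (49.4%) were in the tallest 25% of all accessible promoters. Conversely, 15 members (19.0%) lay below the median of all accessible promoters, and none lay below the 20th percentile. Members had a median CpG observed-over-expected ratio of 0.821, against 0.748 in other genes. Against other genes in the same of 20 bins of this ratio, the median height of the members was 1.26 times as high.

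**Figure D1:**
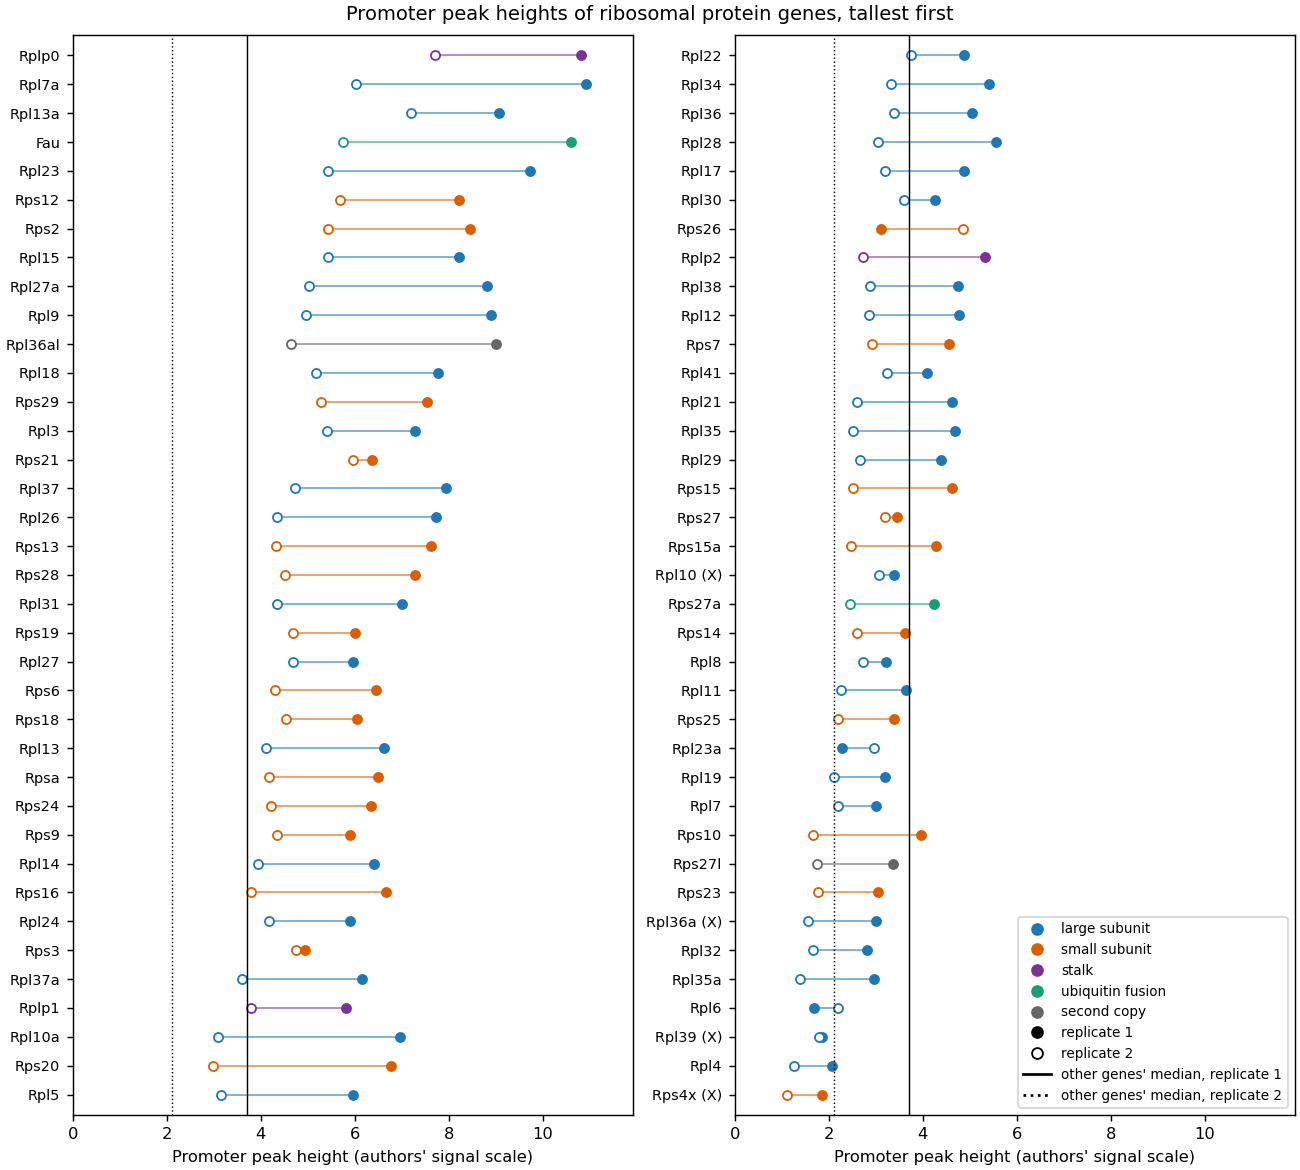
Promoter peak height on the authors' signal scale for 74 of the 79 accessible ribosomal protein genes, ordered by the geometric mean of both replicates, with filled points for replicate 1, open points for replicate 2 and colours for the group. The vertical lines give the medians of other accessible genes, 3.72 in replicate 1 and 2.11 in replicate 2. Points run from Rplp0, at 10.8 and 7.70, to Rps4x, the lowest member, and they spread to both sides of the lines.

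The tallest promoter belonged to Rplp0, the stalk protein on which the Rplp1 and Rplp2 dimers assemble, with 10.8 and 7.70 in replicates 1 and 2. It ranked 114 of the 12324 accessible promoters. Rpl7a had 10.9 and 6.02, and Rpl13a, a large-subunit gene that hosts 4 small nucleolar RNA genes, had 9.08 and 7.20. Fau, which encodes small-subunit protein eS30 fused to a ubiquitin-like sequence, had 10.6 and 5.75. Rpl23 had 9.73 and 5.44, and Rps12 had 8.23 and 5.69.

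At the other end, Rps4x had the lowest accessible promoter, at 1.86 and 1.11. Also low were Rpl4 at 2.08 and 1.26, Rpl39 at 1.85 and 1.79, and Rpl6 at 1.70 and 2.20. Rpl35a had 2.97 and 1.40, Rpl32 had 2.81 and 1.67, and Rpl36a had 3.01 and 1.57. The tallest member was thus 6.34 times as high as the lowest by geometric mean. Rpl4 hosts 5 small nucleolar RNA genes, the most of any member.

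Each of the 4 X-linked members lay below the members' median of 4.33. Their median height was 2.00, against 4.65 for the autosomal members, a ratio of 0.429. These samples are male and carry 1 X chromosome. Among other accessible genes, the X-linked ones also had lower promoters, with a median of 1.54 over 395 genes against 2.87 over 11846 autosomal genes, a ratio of 0.535. Rpl10, which joins the large subunit late in its assembly, was the tallest of the 4 at 3.39 and 3.07.

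The subunits overlapped widely. Small-subunit members had a median height of 5.03, and large-subunit members 4.13, with middle ranges (25th to 75th percentile) of 3.33 to 5.73 and 3.09 to 5.49. The other stalk genes were below Rplp0, with 5.82 and 3.79 in Rplp1 and 5.32 and 2.73 in Rplp2. Rpsa, which also serves as a laminin receptor, had 6.50 and 4.17. Rps27a, the ubiquitin fusion, had 4.24 and 2.45. The 29 members that host small nucleolar RNA genes, 56 in all, had a median of 4.85, and the other accessible members 4.25. A divergent protein-coding neighbour within 1000 bp was present at 17 of 82 members (20.7%), against 10.9% of other genes. Lists compared below had similar or higher shares. These were 37.2% for mitochondrial ribosomal protein genes, 28% for ribosome biogenesis, 25% for the proteasome list and 18.75% for other TOP mRNA genes. Members with such a neighbour had a median height of 5.24, against 4.27 for members without one. The same tallest peak was shared with a coding neighbour at 15 of the 79 accessible members. Among them were Rpl7a with Med22, Fau with Mrpl49 and Rpl9 with Lias. Shared peaks were not counted for other genes, so whether this share is high is not known.

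Other genes of protein synthesis were set beside the members. The list of other TOP mRNA genes, mostly translation factors, was accessible at 16 of 16 genes, with a median height of 5.72. Its tallest promoters were those of Npm1, a nucleolar chaperone, at 10.7 and 6.58, Eef1g, an elongation factor subunit, at 9.91 and 7.10, and Eif4b, an initiation factor, at 8.05 and 5.55. Ribosome biogenesis genes were accessible at 25 of 25, with a median of 4.08. Nolc1 at 9.98 and 7.35, Rrp9 at 8.36 and 8.14 and Nop56 at 9.91 and 6.73 were the tallest of them, and Nop2, an rRNA methyltransferase, was the lowest at 2.14 and 0.993.

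Genes with a symbol of Psma, Psmb, Psmc or Psmd and a number were accessible at 38 of 40, with a median of 3.77. Most encode proteasome subunits, but the symbols also take in the assembly chaperones Psmd5, Psmd9 and Psmd10, the immunoproteasome subunits Psmb8, Psmb9 and Psmb10, and Psmc3ip, a factor of meiotic recombination. The exceptions were Psma8 and Psmb11, copies used in testis and thymus, and neither had a peak in either replicate under the shorter or the longer lists. The tallest of the list were Psmb3 at 8.79 and 9.10, Psmc4 at 7.72 and 5.17, and Psma2 at 7.34 and 5.23. Mrpl32 of the mitochondrial list, on chromosome 13 like Psma2, had the same heights. Shared peaks were not counted for these lists, so this height may not belong to Psma2 alone. Mitochondrial ribosomal protein genes were accessible at 78 of 78, with a median of 3.09, and ranged up to 13.4 and 8.49 at Mrpl17. Mrps18b had 9.63 and 7.12, and Mrpl18 had 8.90 and 7.52. The middle range of the cytosolic members overlapped that of each other list, at 3.25 to 5.73 for the cytosolic members, 4.99 to 6.20 for the other TOP genes, 2.88 to 5.33 for biogenesis, 2.44 to 4.70 for the proteasome list and 2.02 to 4.78 for the mitochondrial genes.

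**Figure D2:**
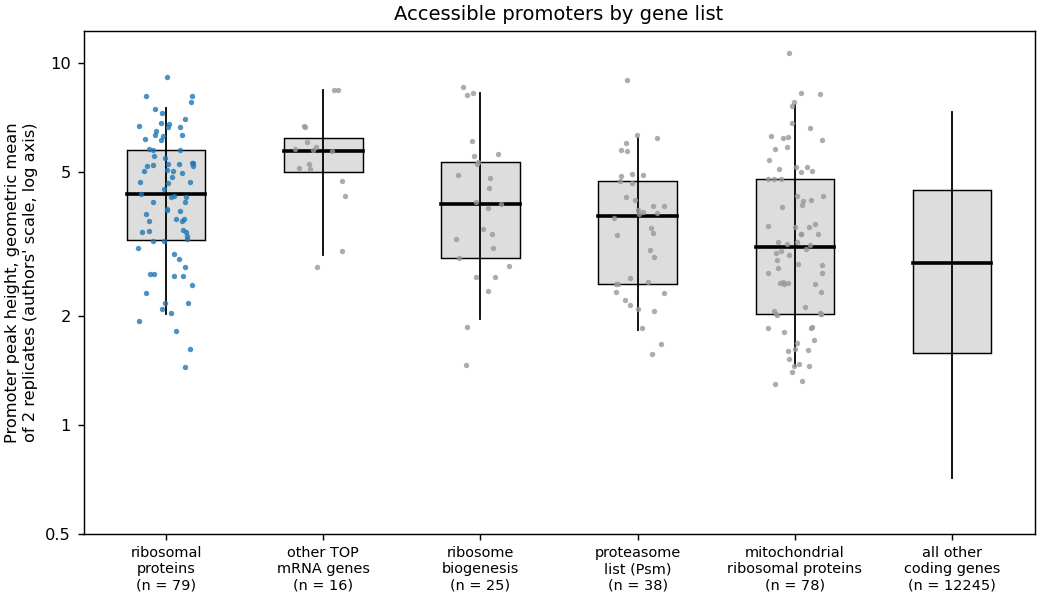
Geometric mean promoter height of both replicates, on a log axis and the authors' scale, for accessible genes of 6 sets. Boxes span the 25th to 75th percentile with the median as a bar, lines span the 5th to 95th percentile, and points are single genes. Medians were 4.33 in ribosomal protein genes, 5.72 in other TOP mRNA genes, 4.08 in biogenesis genes, 3.77 in the list named after the proteasome, 3.09 in mitochondrial ribosomal protein genes and 2.80 in all other genes.

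Peaks were taller but not wider. The median width was 220 bp in members and 240 bp in other genes in each replicate. The members' widths were whole multiples of 20 bp in 99.4% of cases, so the gap between the medians is 1 step. By mean width, 6 of 79 members (7.59%) were over 300 bp wide, against 17.4% of other genes. Another 61 members were 200 to 300 bp wide, a share not counted for other genes. The middle range of mean widths was 210 to 255 bp in members and 210 to 280 bp in other genes. Rps19, a small-subunit gene whose human counterpart is mutated in Diamond-Blackfan anaemia, stood apart with 700 and 640 bp in replicates 1 and 2. It was followed by Rps14 with 460 and 280 bp, and Rps23 with 220 and 520 bp. The narrowest were Rpl36a with 220 and 60 bp, Rpl7a with 200 and 120 bp, and Rpl38 with 220 and 120 bp.

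The replicates ordered the members alike. Spearman's correlation of the heights was 0.851 across the 79 members and 0.926 across the other accessible genes, a description over genes of the same libraries. Replicate 2 heights were lower in nearly all genes, and their scales may differ. The median log2 ratio, replicate 2 over replicate 1, was -0.69 in members and -0.77 in other genes, and replicate 2 was the higher one at 4 members (5.06%) and at 4.87% of other genes. Among those 4 members were Rps26 at 0.64, and Rpl23a and Rpl6 both at 0.38. Low ratios were -1.26 at Rps10 and -1.18 at Rps20. At 4 members, Rps27a, Rpl7, Rpl32 and Rpl39, the tallest peaks of the replicates lay beside each other without overlap, so their heights are those of different peaks.

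All 79 accessible members had footprints within 500 bp of the reference TSS in both replicates, as had 98.2% of all accessible genes. Members had 7.01 ± 2.09 footprints in replicate 1 and 5.86 ± 2.29 in replicate 2 (SD over the 79 members), and other genes 7.17 ± 3.11 and 5.29 ± 2.69 (SD over the 12245 genes). The mean over members was 1.03 times that of other genes. It was 0.896 times that of other genes in the same decile of promoter heights. Across other genes the count rose with height, with a Spearman correlation of 0.392 in replicate 1 and 0.572 in replicate 2. Across members it was 0.0972 and 0.116, both descriptions over genes of the same libraries.

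The most footprints were found at Rpl4 with 10 and 12, Rps19 with 12 and 10, Rps27a with 10 and 11, and Rpl10 with 13 and 8 in replicates 1 and 2. Rpl4 was thus among the lowest members by height and among the highest by footprints. Its tallest peak did not reach its reference TSS in either replicate, and was also the tallest promoter peak of the divergent gene Zwilch. The height and the footprint count at Rpl4 therefore describe different stretches in part. Rps4x, the lowest by height, had 2 and 2, and Rpl41, which encodes the smallest ribosomal protein, had 4 and 1.

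The footprints lay close to the start site. In the 20 bp just before the reference TSS, 40.0% of members' bases were in a footprint in replicate 1 and 35.8% in replicate 2, against 32.2% and 27.0% in other genes. This bin was the highest for both sets in both replicates. In the 20 bp from 100 bp after the TSS the shares were 16.8% and 10.9% in members, against 10.5% and 4.94% in other genes. Farther out the order varied between bins. The outermost bin before the TSS starts at 300 bp. Its shares were 2.78% and 1.71% in members, against 5.69% and 4.15% in other genes. In the bin from 280 bp before the TSS, members were lower in replicate 1 (2.85% against 6.30%) and higher in replicate 2 (4.94% against 4.64%). In the bin from 200 bp after the TSS, members had 5.32% and 2.91%, against 4.62% and 2.08% in other genes. Within 100 bp of the TSS members had 1.17 times as many footprints as other genes. No set matched on promoter height was run for this count or for the shares by position.

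**Figure D3:**
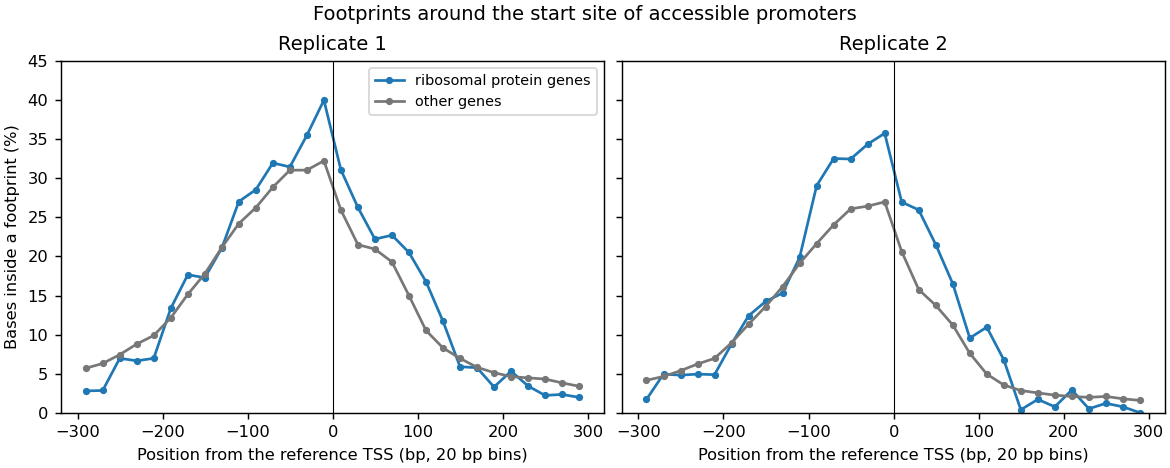
Share of bases inside a footprint (%) by position from the reference TSS in bins of 20 bp, for ribosomal protein genes (blue) and other accessible genes (grey), with a panel for each replicate. Both curves peak just before the TSS, at 40.0% in members and 32.2% in other genes in replicate 1 and at 35.8% and 27.0% in replicate 2.

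Pyrimidine runs were more frequent at the members' start sites than at those of most genes. The longest run of C and T that touched the 10 bp on both sides of the reference TSS had a median of 6 bases in members and 4 bases in other accessible genes. It was 8 bases or longer, a length chosen after the data were seen, in 31 of 79 members (39.2%), against 12.0% of the other accessible genes. Of the other lists, TOP mRNA genes had such a run in 6 of 16 (37.5%), mitochondrial ribosomal protein genes in 11.5%, biogenesis genes in 2 of 25 (8%), and the proteasome list in 5.26%. A C stood at the reference TSS itself in 27 members (34.2%), against 16.5% of other genes. Annotated starts are often some bases off. At the start given by RefSeq, for the 50 members with a single start in that table, a run of 8 or more was found in 48% and a C at the start in 34%, against 13.2% and 15.4% of 7599 other accessible genes.

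Of the longest runs, 5 are given below in capitals, from 30 bp before to 30 bp after the reference TSS on the gene's strand of GRCm38.p6. They show how far the runs lie from the annotated base.

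Rpl7 (chr1:16104373-16104432, minus strand): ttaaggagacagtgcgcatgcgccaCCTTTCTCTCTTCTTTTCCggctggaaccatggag

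Rpl35 (chr2:39005093-39005152, minus strand): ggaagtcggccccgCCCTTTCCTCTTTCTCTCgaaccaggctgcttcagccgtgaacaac

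Rpl26 (chr11:68901553-68901612, plus strand): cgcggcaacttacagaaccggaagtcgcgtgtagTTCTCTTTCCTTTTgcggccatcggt

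Rpl39 (chrX:37085137-37085196, minus strand): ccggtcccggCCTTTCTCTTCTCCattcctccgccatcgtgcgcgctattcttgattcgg

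Rpl4 (chr9:64173345-64173404, plus strand): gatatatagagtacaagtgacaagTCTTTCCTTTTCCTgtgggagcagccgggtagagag

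The runs were 19 bases long in Rpl7, 18 in Rpl35 and 14 in Rpl26, Rpl39 and Rpl4.

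**Figure D4:**
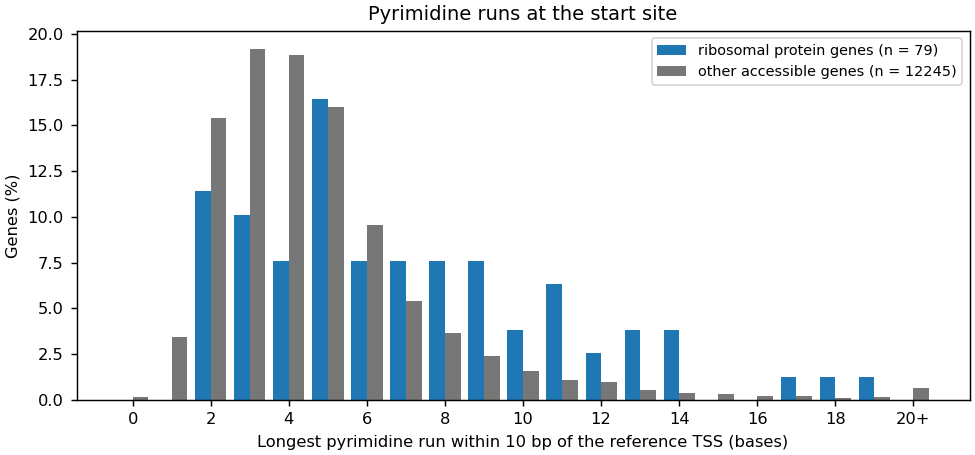
Share of genes (%) by the length in bases of the longest pyrimidine run within 10 bp of the reference TSS, for the 79 accessible ribosomal protein genes (blue) and 12245 other accessible genes (grey). Runs of 8 bases or longer make up 39.2% of the members and 12.0% of the other genes.

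In all, 9 short motifs were searched from 250 bp before to 50 bp after the reference TSS, on both strands except TATAAA, which was read on the gene's strand. A match is a description of the letters and not a site. The ETS motif CCGGAAG was present in 31 of 79 members (39.2%), against 19.0% of other accessible genes and 12.0% of the windows of all protein-coding genes. The motif TCTCGCG, which forms part of the element bound by the protein BANP, was present in 18 members (22.8%), against 5.99% of other accessible genes and 3.77% of all windows. Other genes in the same height deciles held ETS in 22.8% and TCTCGCG in 7.64%, and other genes in the same CpG bins held ETS in 21.5% and TCTCGCG in 7.69%.

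The SP/KLF and NF-Y motifs were less frequent in members than in other accessible genes. The SP/KLF motif GGGCGG was found in 54.4% of members and 68.0% of other accessible genes, and the NF-Y motif CCAAT in 30.4% of members and 39.8% of other genes. In all windows the shares were 47.6% for GGGCGG and 38.8% for CCAAT. The NRF1 motif GCGCANGC was in 21.5% of members and 23.0% of other genes, and the E-box CACGTG in 10.1% of members and 10.6% of other genes, with 14.7% and 7.99% of all windows. Few members held the remaining motifs. The cyclic AMP response element TGACGTCA was in 6 members (7.59%) and 4.16% of other genes, the YY1 motif AAGATGGC in 5 (6.33%) and 5.01%, and TATAAA in 5 (6.33%) and 3.47%, with 2.77%, 3.31% and 8.10% of all windows. No matches of ETS and TCTCGCG overlapped each other in members, and overlaps of any different motifs were found 3 times.

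**Figure D5:**
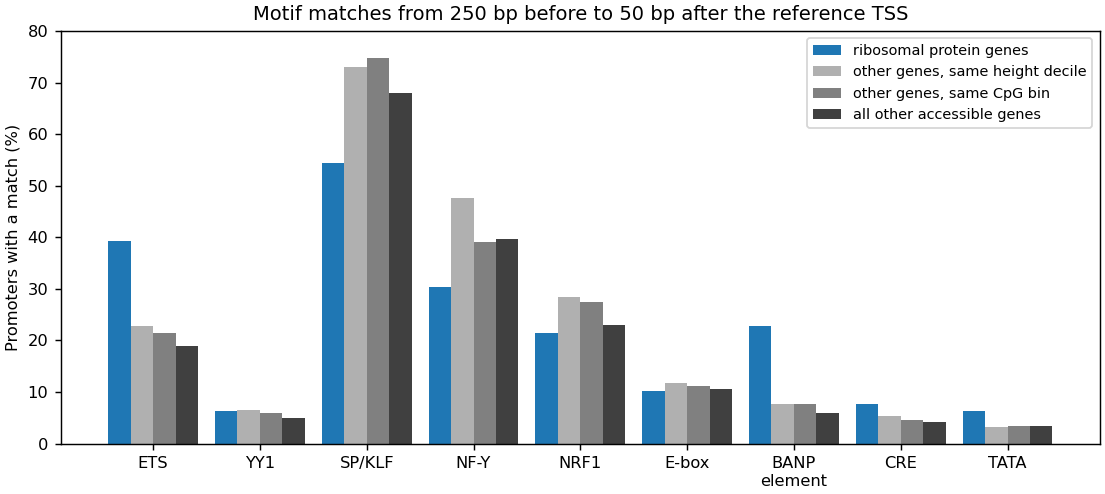
Share of promoters (%) with at least 1 match to each of 9 motifs, for ribosomal protein genes, other genes in the same height decile, other genes in the same CpG bin and all other accessible genes. The ETS and BANP element bars of the members, at 39.2% and 22.8%, lie above all 3 comparison bars, and the SP/KLF bar at 54.4% lies below them.

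TCTCGCG often stood as the palindrome TCTCGCGAGA, which counts as a match on each strand. The whole palindrome was in 8 of 79 members (10.1%), against 1.14% of other accessible genes and 0.716% of all windows. Among those members were Rpl4, Rpl10a, Rpl12, Rpl17, Rpl26, Rps6 and Rps28. Of the members' 27 matches to TCTCGCG, 23 lay within 100 bp of the reference TSS, and 18 touched a footprint of both replicates, in 12 members. A search of the whole 100 bp on both sides of the TSS gave 25 matches in members and 790 in other genes. The window from 250 bp before to 50 bp after gave 27 and 974. Matches in a footprint of both replicates were not counted for other genes. In a footprint of either replicate lay 74.1% of the members' matches and 62.8% of those of other genes. For ETS these shares were 47.4% of 38 matches in members and 56.1% in other genes. The 4 sequences below, chosen after the matches were seen, are from members with 2 or more TCTCGCG matches in footprints, with 15 bp on both sides and the matches in capitals, on the gene's strand of GRCm38.p6.

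Rpl26 (chr11:68901525-68901571, plus strand): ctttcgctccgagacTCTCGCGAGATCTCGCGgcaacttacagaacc

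Rps28 (chr17:33824539-33824578, minus strand): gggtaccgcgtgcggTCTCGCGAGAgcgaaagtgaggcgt

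Rps6 (chr4:86857394-86857433, minus strand): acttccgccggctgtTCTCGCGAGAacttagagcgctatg

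Rpl10a (chr17:28328519-28328558, plus strand): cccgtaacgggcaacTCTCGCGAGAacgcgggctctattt

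In Rpl26, 3 overlapping or adjoining matches lay at positions -43 to -27 from the reference TSS, and each touched a footprint of both replicates. In Rpl7a, whose window is printed above, a match lay at positions -9 to -3 inside a footprint of both replicates. In Rps28, and in Rps6, whose product is the main phosphorylation target of S6 kinase on the ribosome, the palindrome covered the reference TSS. Both motif kinds occurred together in 6 members and at least 1 of them in 43. Members with an ETS match had a median height of 3.81, those with TCTCGCG 4.96 and those with neither 4.90. ETS matches came in pairs at Rps21, where both touched a footprint, shown here with the matches in capitals.

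Rps21 (chr2:180257276-180257374, plus strand): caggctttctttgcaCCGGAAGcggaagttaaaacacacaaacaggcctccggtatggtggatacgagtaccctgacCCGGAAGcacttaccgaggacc

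Distal open chromatin was found in fewer than 50% of the members' loci. Within the gene body and 20 kb on both sides, and over 2000 bp from every annotated TSS, both replicates shared 51 regions in the loci of 35 of 82 members (42.7%). Over all protein-coding genes, 46.7% had 1 or more. The members' loci were short, with a median of 43.3 kb against 57.6 kb in other genes, and per megabase they held 14.0 regions against 11.2. With replicate 1 left out that order turned, to 0.904 times the density of other genes, and with replicate 2 left out it was 1.07 times.

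Of the 51 regions, 2 lay inside a member's own body, in Rps14 and in Rpl22. Rpl22 and Rps14 had the most, with 3 each, and 12 members had 2 each, among them Rplp0, Rplp1 and Rpl29. The tallest region was near Rpl29, with heights of 4.58 and 4.01 in replicates 1 and 2, at chr9:106418261-106418580 (mm10) and 10874 bp from the nearest TSS. It exceeded the Rpl29 promoter in replicate 1, at 4.39, and in replicate 2, at 2.66. The next was near Rpl12 with 3.29 and 1.94, at chr2:32966821-32967200 and 3530 bp from the nearest TSS. The median height of the members' regions was 1.20, against 0.856 for all 23895 shared distal regions. The latter set covers the whole genome and not only the loci of genes. Heights of regions in other genes' loci alone were not measured. Whether any of the members' regions acts on a member was not tested.

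As a check of the tissue, 5 of 8 cortex neuron markers were accessible, among them Snap25 at 2.55 and 2.05 and Camk2a at 3.61 and 2.72, and 0 of 6 markers of other tissues were. In the longer lists 7 of 8 neuron markers and 1 of 6 markers of other tissues were accessible. The marker of another tissue was Hoxa10, at 0.544 and 0.270. The peaks used covered 13.3 Mb in replicate 1 and 15.3 Mb in replicate 2, and there were 280338 footprints in replicate 1 and 245020 in replicate 2.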

How the data were processed

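The 2 DNase-seq libraries came with 2 peak lists, 1 footprint list and 1 false discovery rate track each, on mm10 per the file headers. Peak height is a signal on the authors' own scale. The deposited p-value columns are a false discovery rate below 0.05 in the track and a constant of 0.01 in the footprint lists, which were used as positions. Aligner, callers, height scaling and any correction for cutting bias: not given in the sources used here. With no read counts deposited, depth is unknown and no interval that needs it is given.

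The shorter list of each replicate was used, and overlapping peaks were joined under their tallest height (1089 fewer intervals in replicate 1 and 522 fewer in replicate 2). Genes came from GENCODE release M21 and sequence from GRCm38.p6, and no peak ran past the end of any of the 21 chromosomes. Distal regions needed 1 bp of overlap between the replicates' peaks. Other genes were all other protein-coding genes, accessible ones for heights, widths, footprints and motifs. At no member were 50% or more of the promoter peak's 25-mers present in several copies in the genome; the highest share was 37.3% and the median 3.94%. RefSeq starts were those of the GRCm38.p6 promoter table.

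A few members enter the counts and medians but are not reported here by name. The members and lists were chosen with earlier results of these data known. Genes named are, apart from these, members without an accessible promoter, the 8 tallest and 8 lowest, extremes of width, ratio, footprints and distal regions, X-linked, stalk and fusion genes, and the 3 tallest and all closed genes of other lists. Further members were named as examples of a motif match, a pyrimidine run or a peak trait, or as counterparts of paralogous copies. Examples of motifs and runs were picked by that result. Nop2 was named as the lowest of its list, and Mrpl32 for having the heights of Psma2. Scripts in Python 3.11.15 with numpy 2.4.6 and pandas 2.3.3 were tested on simulated data. Alternatives included the longer lists, the stronger part of each list, other windows and each replicate left out.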

Additional observations from a re-analysis of the deposited data

How the results depend on the processing

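The number of accessible members stayed at 79 under the longer lists, the taller 50% of each list, both other promoter windows and coding starts only, and was 79 to 80 with a replicate left out. Without members that have a coding start of another gene within 1000 bp it was 59 of a smaller set. The ratio of median heights, members over other genes, was 1.40 to 1.69 under the other lists, windows and sets of starts, 1.63 to 1.73 with a replicate left out, and 1.26 within CpG bins. The width ratio of 0.958 was 1.00 with a window of 2000 bp, 0.917 without close neighbours and 0.917 to 0.917 with a replicate left out. The footprint ratio of 1.03 lay on both sides of 1: it was 0.990 with the taller 50%, 0.977 inside the tallest peak, 0.896 in the same height decile, 1.17 within 100 bp, and 0.998 to 1.12 with a replicate left out. The density ratio of distal regions, 1.26, was 1.09 with the longer lists, 1.91 with the taller 50%, 1.01 over 5000 bp from a TSS, and 0.904 to 1.07 with a replicate left out. The cause was not tested. Alternatives chosen after seeing the data were the width within CpG bins and height deciles, at 0.958 in both, the RefSeq starts for motifs and pyrimidine runs, and the sets matched on height or CpG for motifs. The length of 8 bases for a pyrimidine run was also chosen after seeing the data, and no matched set was run for it. At RefSeq starts ETS was in 40% of members and 19.6% of other genes, and TCTCGCG in 22% of members and 6.03% of other genes. No paired analysis was possible because there was 1 group and no test. Unknown depth limits any statement on absent peaks.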
